A study of Mus musculus with 2 samples.

Results

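Glucose enters mouse embryonic stem (ES) cells through transporters such as the one encoded by Slc2a1. It is turned into pyruvate and lactate by the enzymes of glycolysis. The genes described here are Slc2a1 and 9 enzymes of that route, namely Hk1, Hk2, Gpi1, Pfkl, Pfkp, Aldoa, Tpi1, Pgk1 and Ldha. They were read from every probe set that the platform annotation assigns to exactly these symbols, 19 of the 45118 on the array. These cover 9 of the 10 genes, out of 16563 genes with a usable probe set. Gpi1, which encodes the isomerase between hexokinase and phosphofructokinase, had no probe set under that symbol and so has no expression value here.

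Expression was measured on Affymetrix arrays in ES cells depleted of the histone variant H2A.B and in control ES cells, with 1 array per group. The H2A.B KD cells carried a retrovirus with a short-hairpin RNA against H2A.B, expressed from a U6 promoter in the pMSCV-neo vector, and the control KD cells carried the same kind of virus with a control RNA sequence. Per the labels, the H2A.B KD cells were kept in G418, which selects for the neo gene, for 2 to 4 weeks, and the RNA of both groups came from G418-treated cells. Both groups were grown without feeder cells, on gelatin in medium with serum and ESGRO, a leukaemia inhibitory factor. The H2A.B KD sample is numbered #1 in its title, and the strain of the cells and the meaning of that number are not given in the sources used here. With 1 array per group there is no replicate error and no test, so every difference below compares these 2 arrays.

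Glycolysis converts glucose to pyruvate in the cytosol and yields ATP without oxygen. Lactate dehydrogenase then turns pyruvate into lactate, which restores the NAD+ that the pathway consumes. Pluripotent stem cells are known for a high rate of this conversion even when oxygen is present. Many genes of the pathway are known targets of hypoxia-inducible factors. These factors bind a short DNA core, of which ACGTG is one form and GCGTG another.

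The ACGTG form, called the core below, was searched on both strands in the 250 bases before each RefSeq start site. The search shows where it stands in the members' own start regions. All 10 genes were matched in the promoter table of RefSeq (build GRCm38.p6), with 14 start sites between them. The core stood before at least 1 start site of 5 of the 10 genes and in 6 of the 14 windows, against 18.5% of the 27025 genes and 16.6% of the 32851 windows in the whole table. The 5 genes were Slc2a1, Hk2, Aldoa, Pgk1 and Ldha, and 1 window of each is printed here from 5′ to 3′ up to the base before the start, with each match to ACGTG or to its reverse complement in capitals.
Slc2a1 (chr4:119108495-119108744, plus strand): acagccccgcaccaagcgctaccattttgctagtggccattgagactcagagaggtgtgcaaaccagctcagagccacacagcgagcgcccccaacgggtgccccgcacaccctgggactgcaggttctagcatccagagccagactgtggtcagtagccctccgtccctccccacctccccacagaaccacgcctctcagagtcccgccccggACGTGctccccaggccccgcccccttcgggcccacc
Hk2 (chr6:82774455-82774704, minus strand): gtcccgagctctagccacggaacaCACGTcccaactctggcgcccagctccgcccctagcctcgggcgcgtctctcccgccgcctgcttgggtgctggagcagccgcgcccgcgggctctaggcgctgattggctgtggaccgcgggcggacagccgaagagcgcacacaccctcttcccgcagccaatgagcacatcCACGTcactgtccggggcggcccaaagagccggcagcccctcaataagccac
Aldoa (chr7:126799255-126799504, minus strand): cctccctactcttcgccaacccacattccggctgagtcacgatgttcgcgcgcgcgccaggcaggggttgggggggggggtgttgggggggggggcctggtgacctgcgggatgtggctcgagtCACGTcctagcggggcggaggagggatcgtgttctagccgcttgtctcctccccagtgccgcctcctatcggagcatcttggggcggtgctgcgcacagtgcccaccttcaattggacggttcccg
Pgk1 (chrX:106186850-106187099, plus strand): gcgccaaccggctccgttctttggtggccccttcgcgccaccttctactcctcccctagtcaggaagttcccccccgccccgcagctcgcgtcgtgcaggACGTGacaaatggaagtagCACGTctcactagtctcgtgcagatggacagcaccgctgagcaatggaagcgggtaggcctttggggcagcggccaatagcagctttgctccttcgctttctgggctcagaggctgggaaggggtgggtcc
Ldha (chr7:46845554-46845803, plus strand): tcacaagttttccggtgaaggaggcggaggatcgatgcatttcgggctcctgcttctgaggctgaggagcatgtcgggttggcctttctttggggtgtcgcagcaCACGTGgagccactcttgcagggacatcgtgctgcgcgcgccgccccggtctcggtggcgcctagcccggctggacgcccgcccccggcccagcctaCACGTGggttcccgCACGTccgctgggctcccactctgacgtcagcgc
The Ldha window held 3 separate stretches, beginning 145, 48 and 34 bases before the start, and in the stretches at 145 and 48 the matches on the 2 strands overlap in a palindrome. Pgk1 had stretches beginning 150 and 131 bases and Hk2 226 and 52 bases before the start, while Slc2a1 had a single one at 36. Aldoa had a single stretch at 126 bases, and the other Aldoa window that holds the core overlaps the one printed. These matches describe the sequence only, since binding was not measured. The GCGTG form was not searched, so a gene without ACGTG may still hold the other form.

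The array intensities are log2 values made with RMA, a method that corrects the background, makes the distribution of values alike between arrays and combines the probes of a probe set. A difference is the H2A.B KD value minus the control KD value, and a log2 difference of 1 is 2-fold. No probe set named H2ab1, H2ab2 or H2ab3, which encode H2A.B (0 probe sets), so these arrays do not show how far H2A.B was depleted. ES cell markers were bright on both arrays. Of the 8 listed, 7 had a usable probe set, and all 7 passed the intensity filter described below. Their differences ran from -0.09 (Nanog) to 0.16 (Klf4). Pou5f1, which encodes Oct4, had 12.64 on the H2A.B KD array and 12.65 on the control KD array. Of 8 feeder or fibroblast markers 3 passed, Col1a1, Col3a1 and Thy1, at differences from 0.07 to 0.25.

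The deposited table is not alike throughout. In the rows from 18185 to 33642, here called the middle section, 1455 control values repeat another value of the table from up to 20 rows above, and these were left out. The rows before it are the first section and the rows after it the last. Among genes with several probe sets past the filter, a gene's probe sets of the same section disagreed by a median SD of 0.04 within the first section (1034 genes), 0.15 within the middle one (277 genes) and 0.04 within the last (241 genes). The median absolute difference over genes past the filter was 0.04 for those read from the first section, against 0.19 for the middle one and 0.19 for the last. Of the glycolysis probe sets, 10 belong to the first section, 6 to the middle one and 3 to the last. All 19 had usable values, and 0 of them shared a value with any other position of the table.

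Glycolysis transcripts had almost equal intensities on the H2A.B KD array and the control KD array. Each gene was read from its brightest usable probe set, and a gene passed the filter when its mean over both arrays was at or above 6.73, the median over genes; all 9 measured genes passed. None of them reached a 2-fold difference (0 of 9), against 1.96% of the 8282 genes past the filter. Such a count says little for 9 genes. The differences ran from -0.34 for Hk1 to 0.04 for Pfkl, with 5 genes above and 4 below 0 and a median of 0.0047, beside a median of -0.0016 over all genes past the filter. The difference was under 0.1 in size for 8 of the 9 genes, against 58.5% of all genes past the filter. The exception was Hk1.

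**Figure D1:**
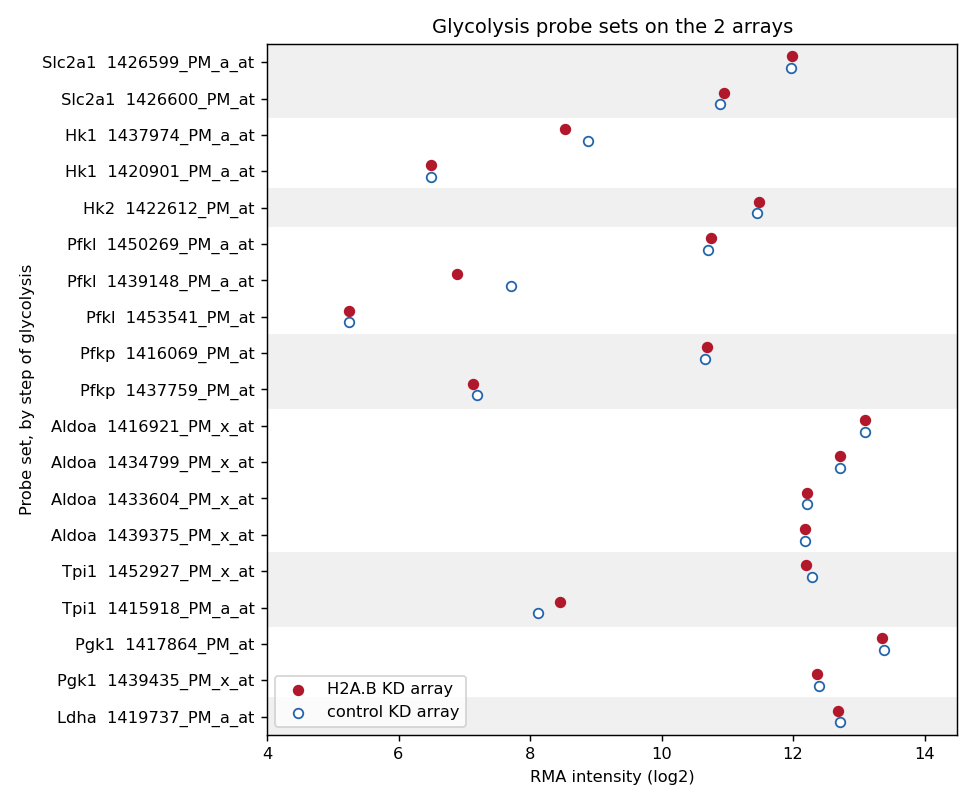
RMA intensity (log2 scale, horizontal axis) of each of the 19 glycolysis probe sets, in the order of the pathway and, within a gene, from bright to dim. Filled red points are the H2A.B KD array and open blue points the control KD array; the points stand apart for 1 probe set each of Hk1, Pfkl and Tpi1, and nearly coincide for the other 16.

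Among the genes described here, uptake of glucose was represented by Slc2a1 alone, which encodes the transporter GLUT1 of basal glucose uptake. Slc2a3, another transporter gene, is given further below. The brighter Slc2a1 probe set had 11.99 on the H2A.B KD array and 11.96 on the control KD array, a difference of 0.03. The dimmer one had 10.95 on the H2A.B KD array and 10.89 on the control KD array, a difference of 0.06. Both lie in the first section and were slightly higher on the H2A.B KD array, by 1.02-fold and 1.04-fold. Differences of at least 0.06 were found in 34.1% of the 763 other probe sets of that section within 0.5 of the dimmer one in mean intensity, so its difference was an ordinary one for its brightness.

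The hexokinases trap glucose in the cell by phosphorylating it. Hk2, the form that is known to respond to insulin and hypoxia, had a single probe set with 11.48 on the H2A.B KD array and 11.45 on the control KD array (0.03). Hk1, the form of most tissues, was read by a pair of probe sets that differed from each other. The brighter had 8.54 on the H2A.B KD array and 8.88 on the control KD array, 1.27-fold lower (-0.34). The dimmer, just below the filter, had 6.49 on both arrays (0.0013). The brighter Hk1 probe set lies in the middle section, where 18.3% of 860 probe sets of like intensity differed by at least as much, and the dimmer one in the first section. The part that the section plays in the Hk1 difference was not tested, and without the middle section Hk1 has no probe set past the filter.

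Phosphofructokinase catalyses the committed step of glycolysis, and its subunits come from Pfkl, Pfkp and Pfkm. Pfkl, the liver-type gene, had 10.75 on the H2A.B KD array and 10.70 on the control KD array on its brightest probe set (0.04). On a dimmer probe set, in the middle section, it had 6.88 on the H2A.B KD array and 7.71 on the control KD array. That difference of -0.83, or 1.78-fold, was the largest of the 19. Differences of at least this size occurred in 8.93% of 1232 middle-section probe sets of like intensity. The third Pfkl probe set, the dimmest of all the members, had 5.25 on both arrays (-0.0002). The lower value was thus found on 1 of 3 Pfkl probe sets, and the other two, both in the last section, lay within 0.05 of 0.

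Pfkp, the platelet-type gene, had 10.70 on the H2A.B KD array and 10.67 on the control KD array on its brighter probe set (0.03). Its dimmer probe set had 7.14 on the H2A.B KD array and 7.20 on the control KD array (-0.06). The signs of the Pfkp probe sets thus differed, at sizes of at most 1.04-fold. The middle-section neighbours of the dimmer one had a median absolute difference of 0.15, well above its own.

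Aldoa encodes the aldolase that splits the doubly phosphorylated sugar into triose phosphates. Its 4 probe sets gave the closest agreement of the set. On the brightest the value was 13.09 on both arrays, a difference of 0.0047. The other three differed by 0.0044, 0.0012 and 0.0071, at intensities from 12.18 to 12.71 on the H2A.B KD array and from 12.18 to 12.71 on the control KD array. All 4 lay above 0, and their SD was 0.0024. With lowess centring, an alternative given at the end, all 4 lay below 0 (from -0.019 to -0.011), so their sign depended on the centring. Of these, 2 lie in the middle section, where probe sets of like intensity had median absolute differences of 0.11 and 0.12. All 4 carry the x suffix, which marks probe sets with probes that may also bind related sequences, so part of each signal may come from other transcripts.

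Tpi1 encodes the isomerase that interconverts the triose phosphates. Its brighter probe set, in the last section, had 12.20 on the H2A.B KD array and 12.29 on the control KD array (-0.09). Its dimmer probe set, in the first section, had 8.46 on the H2A.B KD array and 8.12 on the control KD array, 1.26-fold higher (0.33). The signs were opposite. Of the 1941 first-section probe sets of like intensity, 4.74% differed by at least as much as the dimmer one. This was the lowest such share among the 19 glycolysis probe sets, and the lowest of 19 shares can be that small without a real difference. The dimmer probe set carries the a suffix, given to probe sets shared by several transcripts of one gene. The brighter one carries the x suffix. Which of the pair follows the amount of Tpi1 RNA cannot be told from these arrays.

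Pgk1, the X-linked gene of phosphoglycerate kinase, which makes ATP, had 13.36 on the H2A.B KD array and 13.39 on the control KD array on its brighter probe set (-0.03). The dimmer had 12.36 on the H2A.B KD array and 12.40 on the control KD array (-0.03). Both were lower by 1.02-fold and lie in different sections. Ldha, whose product turns pyruvate into lactate, had 12.68 on the H2A.B KD array and 12.71 on the control KD array on its single probe set, also 1.02-fold lower (-0.03). Among first-section probe sets of like intensity, 36.1% of 97 differed by at least as much as the brighter Pgk1 probe set. For Ldha it was 46.4% of 168. The brighter Pgk1 probe set (row 2195) and that of Ldha (row 4068) lie in rows 2054 to 4710. In that stretch other knockdown values are not intensities and were left out.

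**Figure D2:**
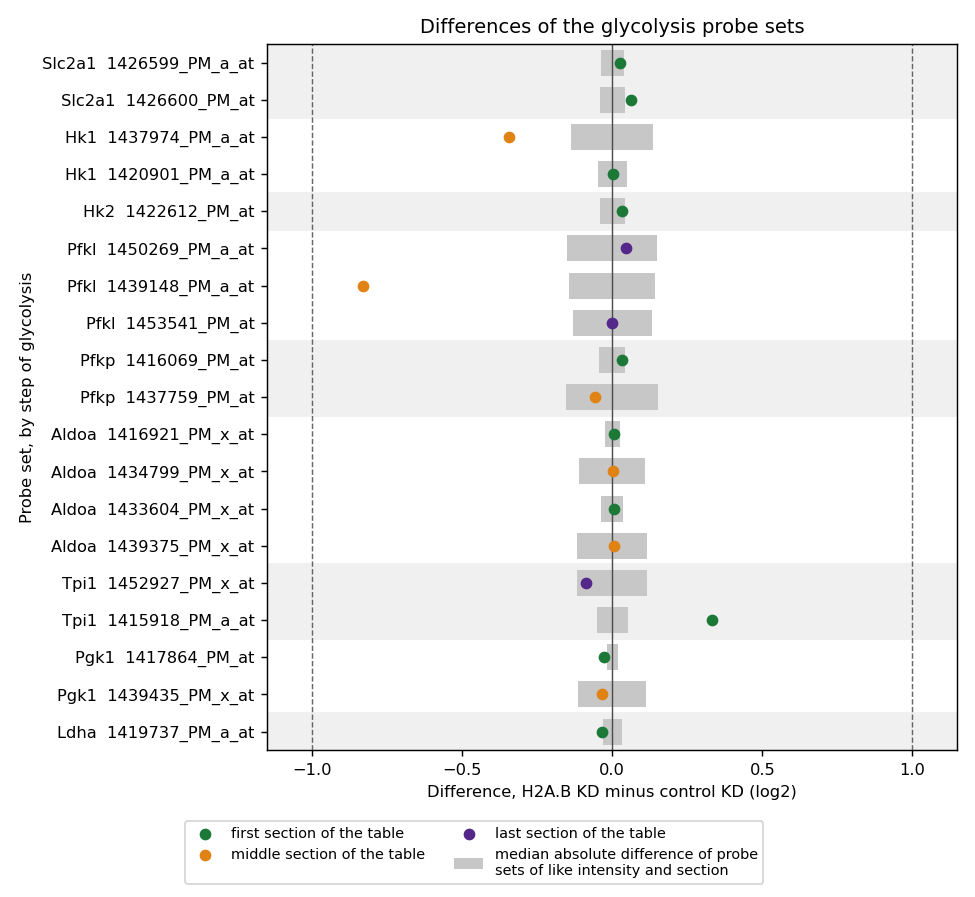
Log2 difference, H2A.B KD minus control KD, of the 19 glycolysis probe sets, coloured by the section of the deposited table, with dashed lines at 2-fold. Each grey bar spans plus and minus the median absolute difference of other probe sets in the same section within 0.5 log2 units of mean intensity; the Pfkl point at -0.83, the Hk1 point at -0.34 and the Tpi1 point at 0.33 lie outside their bars by the widest margins, and the 4 Aldoa points lie closest together.

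Over all 19 probe sets the difference was under 0.1 in size for 16, against 57.1% of the 27614 usable probe sets that name 1 gene, and the median absolute difference was 0.03. None of the 19 was 2-fold different (0 of 19), against 4.19% of those probe sets. At least 1.5-fold different was 1, that of Pfkl, against 9.1%. Such counts say little for 19 probe sets. By section, 9 of 10 glycolysis probe sets in the first section were under 0.1, against 77.1% of the probe sets there. In the middle section 4 of 6 were, against 38.4%, and in the last section 3 of 3, against 35.9%. Of the 19, 17 were past the filter. In the first section the neighbours of the brighter Pgk1 probe set had a median absolute difference of 0.02 and those of the dimmer Hk1 probe set one of 0.05, so brightness moved with the size of a difference, and its part in these counts was not tested.

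The 5 genes with an ACGTG core in the printed windows had differences of 0.03 (Slc2a1), 0.03 (Hk2), 0.0047 (Aldoa), -0.03 (Pgk1) and -0.03 (Ldha) on their brightest probe sets. The 4 measured genes without ACGTG had differences of -0.34 (Hk1), 0.04 (Pfkl), 0.03 (Pfkp) and -0.09 (Tpi1). The GCGTG form was not searched in either set. The values of the first set lay within 0.05 of 0, as did those of Pfkl and Pfkp and 38.6% of all genes past the filter. All 5 genes with the core were read from the first section, where 55% of genes past the filter lay that close to 0. Of the 4 without it only Pfkp was, so the core and the section moved together here, and the part of either in these values was not tested.

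Of 15 other listed enzymes of glycolysis 7 passed the filter, with 3 above and 4 below 0 (median -0.0016). None was 2-fold different (0 of 7, against 1.96% of all genes past the filter, so such a count says little for 7 genes), and 6 of the 7 were under 0.1 in size, against 58.5%. Gapdh, whose enzyme follows triose phosphate isomerase, had 14.15 on the H2A.B KD array and 14.17 on the control KD array (-0.02). Pkm, a pyruvate kinase gene, had 13.38 on the H2A.B KD array and 13.36 on the control KD array (0.02). Pfkm (-0.02), the enolase gene Eno3 (-0.0016), the liver-type pyruvate kinase gene Pklr (0.05) and Ldhb (-0.05) were as close. Aldoc, the brain-type aldolase gene, differed most, with 9.44 on the H2A.B KD array and 9.16 on the control KD array (0.28), and -0.12 on its dimmer probe set. The 4 genes below the filter were Hk3, Pgam2, Eno2 and Ldhc. A probe set shared by Pgam1, of phosphoglycerate mutase, and its pseudogene Pgam1-ps1 had 12.33 on the H2A.B KD array and 12.31 on the control KD array.

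Genes that feed, control or branch from the pathway included larger differences. Over 7 lists of 86 genes, the other glycolysis enzymes included, 48 genes passed the filter. Of these, 30 were under 0.1 in size, against 58.5% of all genes past the filter. At least 1.5-fold different were 6 of the 48, against 5.64% of all genes past the filter, a small count without a test. In either direction 1 of 48 was 2-fold different, against 1.96%. It was lower on the H2A.B KD array (1.28% of all genes past the filter), and 0 were 2-fold higher (0.676%). The gene was Mxi1, a Max-binding repressor and hypoxia target, with 6.44 on the H2A.B KD array and 7.69 on the control KD array (-1.25). The other Mxi1 probe set, which is below the filter, differed by -1.06. The other hypoxia genes past the filter lay between -0.39 (Epas1) and 0.35 (Vhl). Hif1a, whose protein is the oxygen-regulated factor itself, had 11.29 on the H2A.B KD array and 11.27 on the control KD array (0.02), and the target gene Bnip3 had 11.62 on both arrays. Epas1, which encodes a second oxygen-regulated factor, was lower on both of its probe sets (-0.39 and -0.29).

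Among sugar and lactate transporters, Slc2a8 was 1.97-fold lower by its only probe set, with 7.61 on the H2A.B KD array and 8.58 on the control KD array. Slc2a3, which encodes the high-affinity transporter GLUT3, was lower by 1.11-fold and 1.12-fold on its 2 bright probe sets (-0.14 and -0.17), and Bsg, a chaperone of lactate transporters, differed by -0.12. Of the genes that set the rate, Pfkfb2, whose enzyme makes and removes the activator of phosphofructokinase, was higher on all 3 of its probe sets (0.40, 0.14 and 0.23), all in the first section. Pfkfb3 differed by 0.13 and Tigar by 0.09, though the dimmer Tigar probe sets differed by -0.26 and -0.95. At the exit to the mitochondrion, Mpc1, of the pyruvate carrier, was 1.58-fold higher (0.66), while Pcx (0.07) and Dlat (0.06) were close to 0.

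In the pentose phosphate branch H6pd, the dehydrogenase gene of the endoplasmic reticulum, was 1.96-fold higher (0.97) and the transketolase gene Tkt 1.63-fold lower, with 12.39 on the H2A.B KD array and 13.10 on the control KD array (-0.71). Tkt was read from the middle section, and a dim second probe set under the filter read 5.79 on the H2A.B KD array and 5.73 on the control KD array (0.06). Pgd differed by -0.17, -0.33 and 0.21 on its 3 probe sets. Of gluconeogenesis, the reverse route, Fbp2 differed by -0.66 on a middle-section probe set, and Pck2 (0.03) and G6pc3 (0.01) were close to 0. Of these genes, H6pd, Mpc1, Slc2a8 and Fbp2 each had a single usable probe set, so no second reading of them exists on these arrays. H6pd, Mpc1, Slc2a8 and the brighter Mxi1 probe set were read from the last section, which has the wider differences given above.

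**Figure D3:**
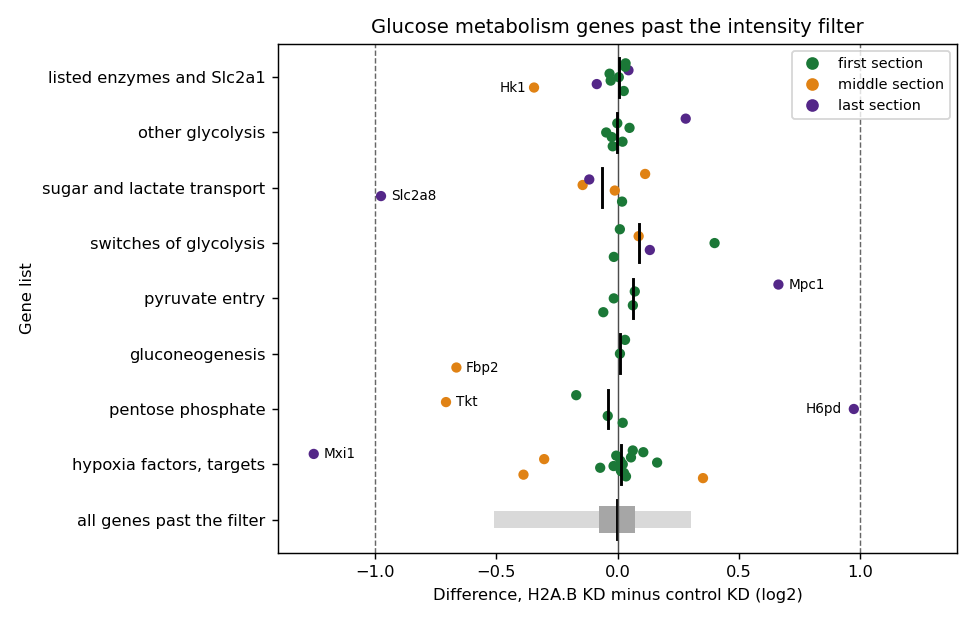
Log2 difference, H2A.B KD minus control KD, of each gene past the intensity filter, by gene list, read from its brightest probe set and coloured by section of the table; black bars are list medians and dashed lines mark 2-fold. The bottom row gives all 8282 genes past the filter, the dark box from the 25th to the 75th percentile (-0.08 to 0.07) and the light box from the 5th to the 95th (-0.51 to 0.30); in the top row Hk1 is the one gene that differed by over 0.1, and Mxi1 is the one gene shown beyond 2-fold.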

How the data were processed

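Total RNA (2 µg) from each culture was labelled with biotin after reverse transcription from a T7-linked oligo(dT) primer, per the labels. Per the submitters' processing notes the deposited values come from RMA; no version is given. The scale of the deposited table is not stated and was taken as log2 from its range. The knockdown column also holds 616 values that rise in steps of 1 and 2 other values above 20, which are no log2 intensities, and these 618 were left out. Control values identical to a value up to 20 rows above were left out too (1455). Neither step removed a glycolysis probe set. The values rising by 1 lie in rows 2054 to 4710, a stretch that also holds the brighter Pgk1 probe set and that of Ldha. Of the 45118 probe sets, 28898 name 1 gene, and symbols were updated by gene identifier. Genes were read from the brightest usable probe set and kept at or above the 50th percentile of mean intensity (6.73). Differences of 2-fold were counted, with no test.

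The members and gene lists were chosen with earlier results of these data known. All members, all other glycolysis enzymes past the filter, and from each remaining list the genes at 2-fold or else the 3 with the largest difference are named; markers, Hif1a, Bnip3, Epas1, Vhl and genes below the filter were named after their values were seen. The number of arrays limits the precision. The steps ran in Python 3.11.15 with pandas 2.3.3 and statsmodels 0.14.6 and were tested on simulated data.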

Additional observations from a re-analysis of the deposited data

How the results depend on the processing

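The count of 2-fold different glycolysis genes was 0 under all 10 alternatives run, which says little for at most 9 genes. None of the 19 probe sets was 2-fold different, so a change of filter, suffix or section could not have raised that count. The share of all genes counted ran from 0.483% to 5.64% over these 10 alternatives. They were each gene's median probe set value, no s, x or a suffix, 2 other filters, median and lowess centring, a 1.5-fold rule, repeated values kept, the middle section left out, and the first section alone, which was chosen after seeing the data. Their median difference ran from -0.02 to 0.03, with its sign turned by the median over probe sets (-0.0002) and by lowess centring (-0.02). The largest move of a single probe set was 0.023, under lowess centring. Only median and lowess centring could move the value of a single probe set. The 1 of 48 pathway genes at 2-fold became 3 of 76 with no filter (Mxi1, Arnt2 and Pdhx; 4.04% of all genes) and 6 of 48 with the 1.5-fold rule (5.64%). It became 0 of 31 once the filter stood at the 75th percentile (0.483%) and 0 of 33 in the first section alone (0.889%). Hk1 and the dimmer Pfkl probe set rest on the middle section. No paired analysis was possible because each group has 1 array, and for the same reason no replicate could be left out. Signal over background was not analysed.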

Other observations

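Of the 28 listed genes of glucose and oxygen metabolism below the intensity filter, 2 differed by more than 2-fold, on a single probe set each, against 6.12% of the 8281 genes below the filter. Pdhx, which encodes the component that anchors the dihydrolipoamide dehydrogenase of the pyruvate dehydrogenase complex, had 4.82 on the H2A.B KD array and 5.99 on the control KD array (-1.17), in the last section of the table. Arnt2, which encodes a partner of the hypoxia-inducible factors, had 3.74 on the H2A.B KD array and 5.60 on the control KD array (-1.87), in the middle section. Pfkfb4, another gene of the enzymes that set the activator of phosphofructokinase, differed by -0.57, also below the filter.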
